A study of Mus musculus with 15 samples.

Results

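The genes of the T cell receptor complex and its first signalling steps, 10 in number, were followed across stimulation and deletion of Asb2: Cd3e, Cd3d, Cd3g and Cd247, which encode the CD3 chains, Cd4, Cd28 and Cd5, which encode a coreceptor, a costimulatory receptor and an inhibitory receptor, the kinase genes Lck and Zap70, and the adaptor gene Lat. They were taken by name from 56748 genes in the deposited tables, and all 10 were among the 15619 genes with enough counts to test. RNA was sequenced from mouse Th2 cells in 15 libraries; these are the helper cells that make interleukins 4, 5 and 13, grown from naive CD4+ splenic cells of female mice. Control cells came from Asb2fl/fl mice, in which the Asb2 alleles are flanked by loxP sites and no Cre is present. Conditional knockout (cKO) cells came from VEC-Cre;Asb2fl/fl mice, which carry Cre under the VE-cadherin promoter, which drives expression in endothelial cells and early blood precursors, so that Cre is not limited to T cells. Cells of every group had been primed over 3 days by plate-bound anti-CD3ε (5 µg/ml) with anti-CD28, anti-interferon gamma and interleukins 2 and 4. For every group the labels then give 3 days in these interleukins. Non-stimulated cells received no further antibody, and stimulated cells met anti-CD3ε at 3 µg/ml and anti-CD28 at 2 µg/ml for 24 h from day 5. Counted from the start of priming, day 5 lies within the days in interleukins, so stimulated cells had fewer days without antibody. Control cells gave 3 libraries without and 5 with stimulation, and cKO cells 3 without and 4 with it. The age of the mice is not given in the sources used here, and the labels do not say that libraries came from separate animals, so a p-value here reflects library-to-library spread only, which may be technical. The stimulating antibodies bind the products of Cd3e and Cd28, which are themselves among the genes described.

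The alpha and beta chains of the receptor bind antigen but have almost no cytoplasmic tail, and the signal passes through the CD3 epsilon, delta, gamma and zeta chains that assemble with them. LCK, held to the CD4 coreceptor, phosphorylates tyrosine motifs in the CD3 tails, ZAP-70 docks on these motifs, and ZAP-70 phosphorylates LAT, a membrane scaffold that gathers the enzymes for calcium and Ras signals. CD28 adds the costimulatory signal, and CD5 damps signalling.

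Each library held 17.1 to 24.2 M estimated counts. Levels are given as CPM, counts scaled to a common library total. The first principal component of log2 CPM, with 65.7% of the variance, separated all 6 non-stimulated from all 9 stimulated libraries. On the second component, with 5.06%, replicate 3 of stimulated cKO cells (33.1) and replicate 3 of non-stimulated control cells (23.7) lay at the upper end. Mitochondrially encoded RNA took 9.43% of the counts of stimulated cKO replicate 3, against 4.36% to 6.24% elsewhere. Asb2, the targeted gene, was at 36.7 ± 12.2 CPM (mean ± SD, n = 3) in non-stimulated control and 19.2 ± 5.62 CPM (n = 3) in non-stimulated cKO cells, a difference that was not called, and at 33.5 ± 2.72 (n = 5) and 9.49 ± 0.115 CPM (n = 4) after stimulation, where it was called lower in cKO cells. Gata3, the Th2 transcription factor, was between 545 and 827 CPM in every library. Of the markers of other cells, Lyz2 of macrophages and Hba-a1 and Hbb-bs of red cells had no count in any library, and Cdh5, the gene of VE-cadherin, was at 0.181 CPM or less. The 2 CD8 genes together were between 5.83 and 28.8 CPM. Some marker sums were lower in stimulated cells. The 5 natural killer genes, mostly Eomes, summed to 29.6 to 123 CPM before and 5.00 to 17.5 CPM after stimulation. The 5 macrophage genes, mostly Adgre1, summed to 10.4 to 20.1 and 0.484 to 2.24 CPM. The 3 endothelial genes, nearly all Pecam1, summed to 165 to 197 and 44.4 to 77.2 CPM, the 4 mast cell and basophil genes to 3.10 to 13.9 and 0.0578 to 1.15 CPM, and Trdc, the 1 gamma-delta marker of 4 with a row, lay at 24.6 to 49.4 and 10.3 to 27.8 CPM. Other sums were higher after stimulation, though not through all of their genes. The 5 B cell genes summed to 1.55 to 3.42 CPM before and 4.95 to 8.94 CPM after in control cells. In cKO cells they summed to 2.96 to 4.99 and 4.33 to 6.34 CPM, where the ranges overlapped. Mean Ebf1 went from 0.284 to 3.97 CPM in control cells, while mean Cd79b went from 1.53 to 1.28 CPM. The 4 dendritic cell genes summed to 3.26 to 6.10 and 6.43 to 8.20 CPM in control cells. The sums in cKO cells were 3.11 to 4.72 and 5.10 to 7.18 CPM. Flt3 and Zbtb46 were higher in mean in both genotypes (control 0.687 to 3.33 and 0.346 to 3.28 CPM). Itgax went the other way, from 3.57 to 0.503 CPM in control and from 2.84 to 0.447 CPM in cKO cells. The part of these marker genes in the differences between non-stimulated and stimulated cells was not tested.

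Levels between genes were compared on the deposited TPM, which divides by transcript length. All 10 genes were abundant, and the first in each group was 4.49 to 4.95 times the last. In non-stimulated control cells Cd3e led with 265 ± 37.5 TPM (n = 3), above Cd3g (226 ± 51.3), Lck (219 ± 9.64) and Cd28 (207 ± 27.0). The ranges of neighbours in this leading set overlapped. Every library had more of these 4 genes than of Lat (150.0 ± 13.9), Cd4 (131 ± 19.8) and Cd247 (116 ± 5.49). Cd3d followed with 70.7 ± 7.89 TPM, and Zap70 (58.0 ± 4.04) and Cd5 (53.5 ± 8.81) were last. After stimulation the order changed at both ends: Lck led with 246 ± 16.9 TPM (n = 5), Cd5 had moved from last into the middle with 149 ± 17.1, and Cd3d was last with 54.8 ± 7.53. Lck did not overlap the next gene, Cd3e (171 ± 30.2), while the ranges of neighbours from Cd3e down to Lat (133 ± 21.7) overlapped. cKO cells had the same leading gene in each condition, Cd3e with 299.6 ± 31.0 TPM (n = 3) and Lck with 242 ± 36.3 (n = 4). Stimulated cKO replicate 3 had the lowest TPM of its group in 9 of the 10 genes, but the lowest CPM in 3. TPM carries no scaling between libraries, so groups are compared on CPM with TMM factors (trimmed mean of M-values).

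**Figure D1:**
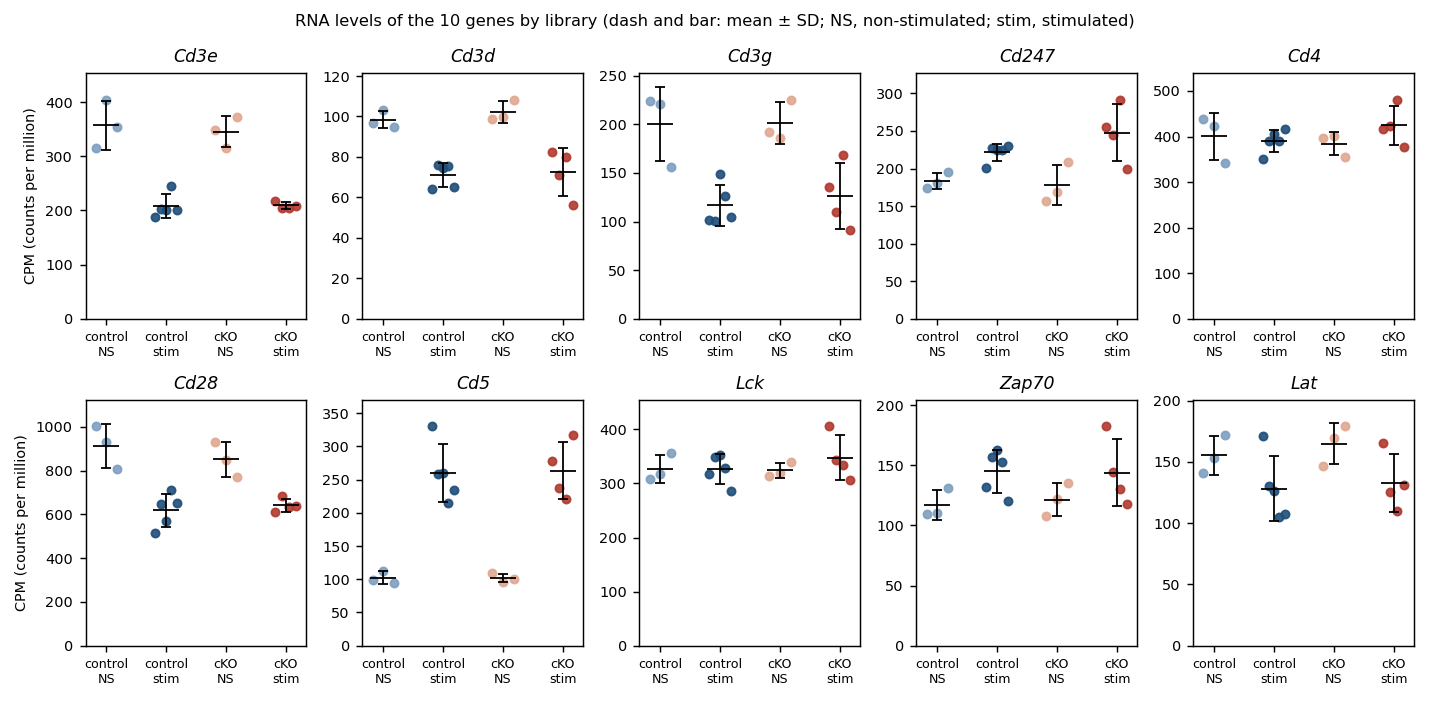
Level of each of the 10 genes in CPM (vertical axis, from 0) in every library of the 4 groups; points are libraries, and the dash and bar are mean ± SD. Cd5 shows no overlap between non-stimulated libraries (94.2 to 113 CPM) and stimulated libraries (215 to 329.9 CPM), and Cd3e lies below 250 CPM in all stimulated libraries and above 300 CPM in all others.

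Stimulation split the 10 genes. In control cells Cd3e, Cd3g, Cd3d and Cd28 fell, Cd5 and Cd247 rose, and Cd4, Lck, Zap70 and Lat were not called, with edgeR's quasi-likelihood test and Benjamini-Hochberg adjustment over all genes tested (adjusted p under 0.05). The same 6 genes were called, in the same directions, in cKO cells. Read against all genes tested, 6 of 10 is close to the background: 50.6% of genes were called in control cells (25.4% higher and 25.2% lower) and 53.8% in cKO cells (26.7% higher and 27.1% lower). The median log2 fold change of the 10 genes was -0.16 in control and -0.10 in cKO cells, against 0.00 and -0.01 over all genes tested. An unadjusted p under 0.05 was found for 7 of the 10 in control cells (55.9% of all genes) and 6 in cKO cells (59% of all genes). In control cells the libraries of the 2 conditions did not overlap in CPM for 6 of the 10 (2 higher and 4 lower), where 47.9% of all genes did not overlap (23.8% higher and 24.2% lower). In cKO cells this held for 5 (1 higher and 4 lower), where the background was 54.1% (26.8% higher and 27.2% lower). In these bulk libraries fewer cells of a type and less RNA per cell cannot be told apart. Without non-stimulated control replicate 3 and stimulated cKO replicate 3, left out together, 7 of the 10 were called in control cells (Zap70 joined the 6, at 0.41 on the log2 scale with an adjusted p of 0.0386) and 6 in cKO cells.

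**Figure D2:**
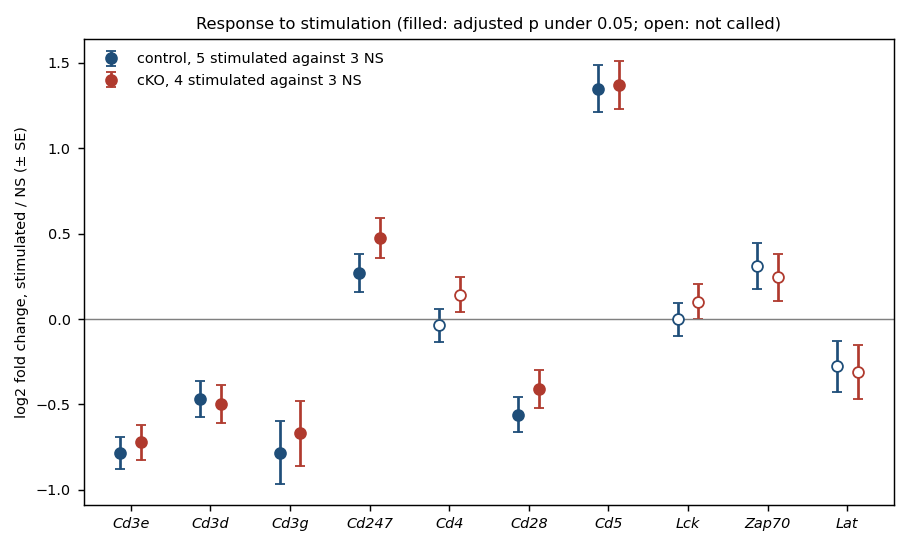
Log2 fold change of stimulated over non-stimulated (NS) cells for the 10 genes (vertical axis; bars are ± SE), in control cells (blue) and cKO cells (red); filled points had an adjusted p under 0.05 and open points did not. Cd5 stands at 1.35 and 1.37, the other 9 genes between -0.78 and 0.48, and the points of the 2 genotypes lie near each other for every gene.

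The CD3 chains moved in opposite directions: the 3 genes that lie side by side on chromosome 9 fell, and Cd247, the zeta chain gene on chromosome 1, rose. Cd3e, whose product is the target of the stimulating antibody, was at 315, 405 and 354 CPM in the non-stimulated control libraries and at 188, 203, 201, 246 and 202 CPM after stimulation. In cKO cells it was at 348, 316 and 372 CPM before and 218, 205, 205 and 209 CPM after. Every stimulated library of either genotype lay below every non-stimulated one. The log2 fold change was -0.78 ± 0.10 (SE; adjusted p = 2.62e-06) in control and -0.72 ± 0.10 (1.19e-05) in cKO cells, or 0.581 and 0.606 times the non-stimulated level.

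Cd3d encodes the delta chain. It was at 96.9, 103 and 95.05 CPM in non-stimulated and 64.1, 76.2, 74.4, 75.6 and 65.4 CPM in stimulated control cells. In cKO cells it was at 98.6, 99.8 and 108 CPM before and 82.4, 71.3, 80.0 and 56.5 CPM after. The conditions again did not overlap, and the log2 fold changes were -0.47 ± 0.11 (adjusted p = 0.00118) and -0.50 ± 0.11 (0.00107). Cd3g, the gamma chain gene, varied more between libraries. Its non-stimulated control libraries had 224, 221 and 157 CPM, and the stimulated ones 102, 100.3, 149, 126 and 105 CPM. In cKO cells the values were 192, 185 and 225 CPM before and 136, 109.9, 169 and 91.1 CPM after. No stimulated library reached a non-stimulated one of its genotype, and in stimulated cKO cells Cd3g had a coefficient of variation of 26.6%, the highest of the 10 genes in any group. Its log2 fold changes were -0.78 ± 0.18 (adjusted p = 0.00211) and -0.67 ± 0.19 (0.00822).

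Cd247 encodes the zeta chain, which carries more of the tyrosine motifs than any other CD3 chain. It was at 174, 181 and 195 CPM in non-stimulated control cells and at 201, 227, 225, 225 and 229.8 CPM after stimulation. In cKO cells it was at 157, 169 and 208 CPM before and 255, 245, 292 and 199.9 CPM after. The control libraries did not overlap, by a gap of a few CPM, and in cKO cells stimulated replicate 4 lay below the highest non-stimulated library. The log2 fold change was 0.27 ± 0.11 in control cells, just past the threshold (adjusted p = 0.0492), and 0.48 ± 0.12 in cKO cells (0.00221). The control call was lost without any one of 9 libraries: non-stimulated control replicates 1, 2 and 3 (adjusted p = 0.152, 0.118 and 0.0501), stimulated control replicates 2, 3, 4 and 5 (0.0673, 0.0568, 0.0721 and 0.0806), non-stimulated cKO replicate 2 (0.0547) and stimulated cKO replicate 1 (0.0532). Exons of Cd247 and of Pou2f1, the gene of the transcription factor OCT1, share 3007 bases on opposite strands in GENCODE M21. The kit marks strand, but the strand setting of the counting is not given in the sources used here, so reads of the overlap may be split between them. Pou2f1 went the other way, with log2 fold changes of -0.50 ± 0.10 in control (adjusted p = 0.000450) and -0.50 ± 0.11 in cKO cells (0.000672). Cd247 also shares 206 bases with a processed transcript on the same strand. Smaller overlaps were those of Cd3e with an antisense gene (135 bases) and of Lck and Lat with microRNA genes on the same strand (25 and 75 bases).

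The sequences before the starts of these 4 genes show where the neighbours sit and what their upstream regions hold. Cd3g and Cd3d are read away from each other from starts 1355 bases apart, and the start of Cd3e is 27825 bases from that of Cd3d, on the other strand. RefSeq promoter entries (build GRCm38.p6, while the study's processing notes name GRCm39) matched 8 of the 10 genes, with 11 start sites; Cd4 and Cd28 were not matched. The 250 bases before the start are printed 5′ to 3′ on the gene's strand for the CD3 genes and for Cd5, the member with the largest fold change, with GGAA (the core of ETS sites, read on either strand, so also TTCC) and CANNTG (the E-box) in capitals. They lie at chr9:45009612-45009861 (minus strand) for Cd3e, chr9:44981536-44981785 (plus) for Cd3d, chr9:44980432-44980681 (minus) for Cd3g, chr1:165788431-165788680 (plus) for Cd247 and chr19:10738975-10739224 (minus) for Cd5.
Cd3e: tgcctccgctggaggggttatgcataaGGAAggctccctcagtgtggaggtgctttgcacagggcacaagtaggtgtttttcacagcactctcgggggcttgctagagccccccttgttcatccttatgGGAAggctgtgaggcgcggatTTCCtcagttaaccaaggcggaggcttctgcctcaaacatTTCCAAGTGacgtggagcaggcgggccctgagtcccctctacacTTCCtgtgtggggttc
Cd3d: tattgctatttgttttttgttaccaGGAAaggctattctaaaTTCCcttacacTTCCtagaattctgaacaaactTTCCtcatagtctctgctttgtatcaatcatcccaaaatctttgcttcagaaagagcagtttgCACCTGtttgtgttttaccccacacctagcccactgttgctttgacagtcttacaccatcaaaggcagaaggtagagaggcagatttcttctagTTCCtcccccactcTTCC
Cd3g: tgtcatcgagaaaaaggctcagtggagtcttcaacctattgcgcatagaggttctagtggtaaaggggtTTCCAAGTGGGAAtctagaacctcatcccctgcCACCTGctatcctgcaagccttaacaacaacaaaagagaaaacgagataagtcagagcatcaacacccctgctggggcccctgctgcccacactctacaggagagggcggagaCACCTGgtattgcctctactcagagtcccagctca
Cd247: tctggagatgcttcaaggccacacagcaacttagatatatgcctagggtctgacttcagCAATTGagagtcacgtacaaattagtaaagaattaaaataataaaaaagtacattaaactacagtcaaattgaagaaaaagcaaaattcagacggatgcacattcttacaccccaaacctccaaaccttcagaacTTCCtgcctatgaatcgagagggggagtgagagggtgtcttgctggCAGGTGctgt
Cd5: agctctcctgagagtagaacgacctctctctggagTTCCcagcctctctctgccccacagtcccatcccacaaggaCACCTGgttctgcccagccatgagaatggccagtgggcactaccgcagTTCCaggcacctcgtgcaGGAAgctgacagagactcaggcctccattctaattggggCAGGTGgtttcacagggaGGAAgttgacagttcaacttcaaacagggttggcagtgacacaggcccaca

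GGAA was present 5 times before Cd3e, 6 times before Cd3d, 2 times before Cd3g, 1 time before Cd247 and 4 times before Cd5. GGAAA, the core of NFAT sites, which contains GGAA, was found 2 times before Cd3e, 2 times before Cd3d and 1 time before Cd3g, and not in the windows of Cd247 and Cd5. CANNTG occurred in all 5 windows, 1 to 3 times each. TATAAA, the TATA box, was in none of them, and GGGCGG, the GC box, was in the Cd3g window. Such short motifs are common: among 32841 windows of this length, 93.5% held GGAA, 55.6% GGAAA, 66.2% CANNTG, 12.4% TATAAA and 32.7% GGGCGG, on either strand. A match is a run of letters and not a measured site.

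The opposite changes altered the proportions of the CD3 chain RNAs within each library. Per transcript length, Cd3e RNA was 2.29 ± 0.27 times Cd247 RNA in non-stimulated and 1.11 ± 0.10 times in stimulated control cells, and 2.42 ± 0.27 and 1.01 ± 0.14 times in cKO cells. No stimulated library (0.876 to 1.28) reached a non-stimulated one (2.10 to 2.74). Of the summed TPM of the 4 chains, Cd247 took 17.2% ± 2.29 before and 29.4% ± 2.05 after stimulation in control cells, and 16.5% ± 1.29 and 30.8% ± 0.970 in cKO cells. Cd3e went from 39.1% ± 3.23 to 32.4% ± 1.89 in control and from 39.7% ± 1.21 to 31.1% ± 3.82 in cKO cells. The Cd3g share went from 33.2% ± 4.97 to 27.9% ± 2.94 in control cells, where the ranges overlapped. In cKO cells it went from 33.5% ± 0.121 to 28.4% ± 3.47. Cd3d stayed at a similar share of the sum, 10.4% ± 0.130 and 10.4% ± 0.485 in control and 10.3% ± 0.483 and 9.73% ± 0.771 in cKO cells. These shares are descriptions without a test of their own, and they say nothing of the amounts of protein.

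**Figure D3:**
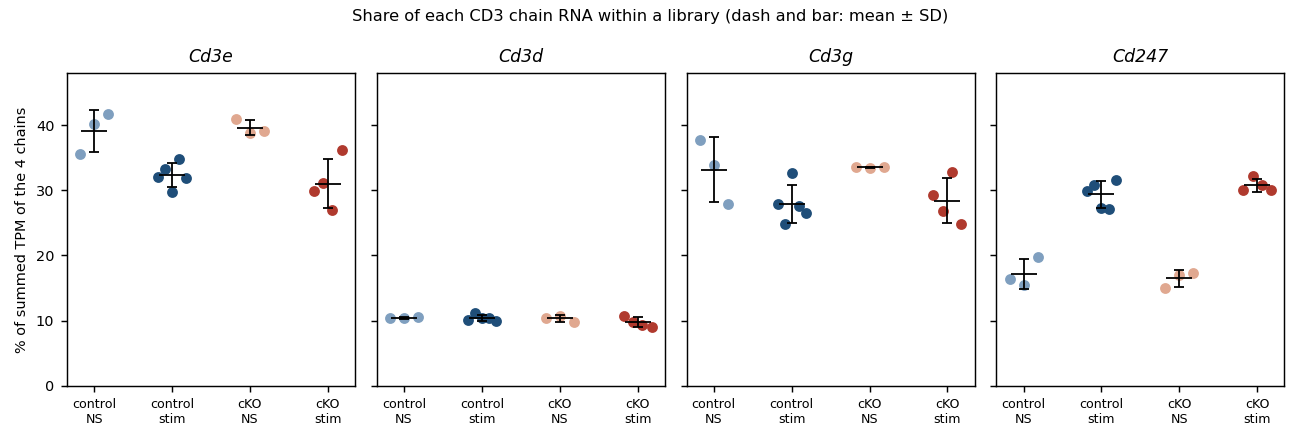
Share of each CD3 chain RNA in the summed TPM of the 4 chains (vertical axis, %), by library and group; dash and bar are mean ± SD. Cd247 lies between 14.99% and 19.8% in the non-stimulated and between 27.2% and 32.1% in the stimulated libraries, while Cd3d is near 10% throughout.

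The 3 surface receptors around the complex behaved differently from each other. Cd4, the coreceptor gene that defines the lineage, was not called. It ranged from 342 to 437 CPM in non-stimulated control cells and from 351 to 416 CPM after stimulation, and from 356 to 401 CPM and 378 to 481 CPM in cKO cells. The log2 fold changes were -0.04 ± 0.10 (95% interval -0.24 to 0.17) in control and 0.14 ± 0.10 (-0.07 to 0.36) in cKO cells. Cd28, the costimulatory receptor bound by the second stimulating antibody, fell. It was at 1002, 929 and 807 CPM in non-stimulated and 517, 646, 571, 711 and 651 CPM in stimulated control cells. In cKO cells it was at 930.4, 849 and 772 CPM before and 609.8, 683, 632 and 640.4 CPM after. The conditions did not overlap in either genotype, and the log2 fold changes were -0.56 ± 0.10 (adjusted p = 0.000237) and -0.41 ± 0.11 (0.00466). On log2 of TPM plus 0.1, a scale that raised the all-gene median by 0.14 in control cells, the control value was -0.43 and the call was lost (limma, adjusted p = 0.0656).

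Cd5, which encodes an inhibitory receptor whose level is known to follow the strength of receptor signalling, rose the most of the 10 genes. It was at 98.6, 113 and 94.2 CPM in non-stimulated control cells and at 329.9, 259, 261, 215 and 234 CPM after stimulation. The cKO libraries had 109, 95.8 and 101 CPM before and 278, 238, 221 and 318 CPM after. Every stimulated library had more than every non-stimulated one, with log2 fold changes of 1.35 ± 0.14 (adjusted p = 3.31e-07) and 1.37 ± 0.14 (4.00e-07), or 2.55 and 2.59 times the starting level. Cd28 RNA was 3.88 ± 0.42 times Cd5 RNA per transcript length in non-stimulated control cells and 1.06 ± 0.27 times after stimulation, and 3.54 ± 0.32 and 1.07 ± 0.18 times in cKO cells, again a description.

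The signalling genes inside the membrane were not called in either genotype. Lck, the kinase that starts the cascade, had means of 327 and 327 CPM in control cells (ranges 308 to 356 and 285 to 353) and of 324 and 347 CPM in cKO cells (314 to 339 and 306 to 405). Its log2 fold changes were -0.00 ± 0.10 (95% interval -0.20 to 0.20) and 0.10 ± 0.10 (-0.11 to 0.31). Zap70, the second kinase, had 109.6, 110.1 and 131 CPM in non-stimulated and 132, 157, 163, 153 and 120.3 CPM in stimulated control cells. One stimulated library, replicate 5, lay within the non-stimulated range. In cKO cells the ranges were 108 to 135 and 118 to 182 CPM, which overlapped. The log2 fold change was 0.31 ± 0.13 (adjusted p = 0.0604) in control and 0.24 ± 0.14 (0.145) in cKO cells. Zap70 was called in control cells without non-stimulated control replicate 3 (adjusted p = 0.0382), stimulated control replicates 1 (0.0471) and 5 (0.0275), and stimulated cKO replicates 1 (0.0289) and 4 (0.0389), and in cKO cells without stimulated cKO replicate 4 (0.0439).

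Lat, the scaffold, had 141, 153 and 172 CPM in non-stimulated and 171, 131, 127, 105 and 107 CPM in stimulated control cells. Stimulated replicate 1 lay within the non-stimulated range and the other 4 below it. The log2 fold change was -0.28 ± 0.15 (adjusted p = 0.133), and -0.39 without that replicate, when it was called (0.0177). In cKO cells the change was -0.31 ± 0.16 (0.105), and -0.43 and called without stimulated replicate 1 (0.0246), which had 166 CPM against 110.3 to 131 CPM in the other 3.

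Deletion of Asb2 changed none of the 10 genes past the threshold, with or without stimulation. Without stimulation the test did not call Asb2 itself, though its libraries did not overlap between genotypes. Its log2 difference there was -0.94 ± 0.21 (edgeR, unadjusted p = 0.000326), so an uncalled gene in that comparison may still differ. Without stimulation 0 of 10 were called, against 0% of all genes tested; 0 of 10 had an unadjusted p under 0.05, against 402 genes or 2.57%, and DESeq2 called 4 genes, no member among them. After stimulation 0 of 10 were called by edgeR, where the background was 0.0064%, which is 1 gene, and 0 of 10 had an unadjusted p under 0.05, against 283 genes or 1.81%. DESeq2 called 5 genes in that comparison and again no member. Log2 differences of cKO from control cells ran from -0.10 ± 0.12 (Cd28, 95% interval -0.35 to 0.15) to 0.09 ± 0.17 (Lat, -0.27 to 0.44) without stimulation. With stimulation they ran from -0.01 ± 0.12 (Zap70, -0.26 to 0.24) to 0.16 ± 0.10 (Cd247, -0.05 to 0.37). For no member did the 2 genotypes separate without overlap, where 7.86% of all genes did so in non-stimulated cells (4.37% higher and 3.49% lower in cKO cells) and 0.659% in stimulated cells (0.307% higher and 0.352% lower). The intervals bound what these libraries leave possible: the lowest bound was -0.43 and the highest 0.48, both for Cd3g, the most variable gene. A p above the threshold does not show that the genotypes were alike.

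The responses to stimulation were also compared between the genotypes through the interaction term. None of the 10 was called (adjusted p = 0.997 or more, edgeR), where 0% of all genes were called, and 0 of 10 had an unadjusted p under 0.05, against 605 genes or 3.87%. DESeq2 called 2 genes, neither a member. The difference was largest in size for Cd247, at 0.20 ± 0.16 (95% interval -0.13 to 0.54), whose response was 0.27 in control and 0.48 in cKO cells. For Cd5 it was 0.02 ± 0.19 (-0.38 to 0.42) and for Cd3e 0.06 ± 0.14 (-0.23 to 0.36).

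**Figure D4:**
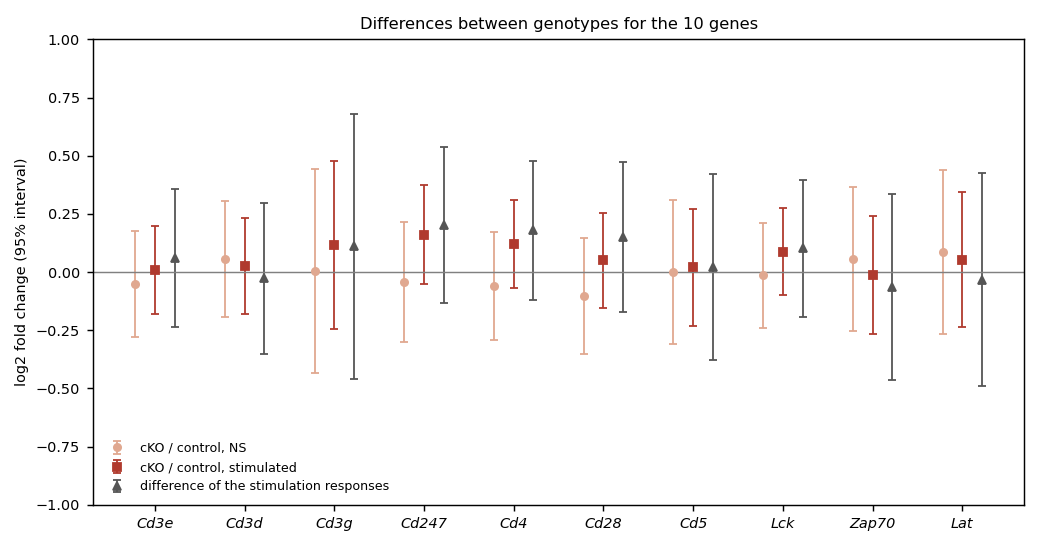
Log2 difference of cKO from control cells without stimulation (circles) and with stimulation (squares), and the difference between the 2 stimulation responses (triangles), for each of the 10 genes; bars are 95% intervals. Every interval includes 0, and those of Cd3g are the widest, from -0.46 to 0.68 for the interaction.

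Genes whose levels followed the members were looked for among 12632 tested genes with an ordinary name, by Pearson's r of log2 CPM over the 15 libraries. The points share the step between conditions that separates the libraries. Among all tested genes beside the members, whatever their name, 1404 had an r over 0.9 with Cd5 and 1294 with Cd3e. The closest to Cd5 was Cd6 (r = 0.99), the related receptor gene that lies next to it on chromosome 19, followed by Il2 (0.99), the gene of the T cell growth factor. Closest to Cd3e were Ctsa and Endod1 (0.99 and 0.98), to Cd3d Dap and Chkb (0.97 and 0.96), and to Cd3g Dctn6 and Ctla2a (0.96 and 0.96). Cd28 was closest to Xpr1 and Pdik1l (0.98 and 0.96), and Cd247 to Rap1b (0.93). Lat was closest to Lypla2 and Bag6 (0.97 and 0.94), Zap70 to Map2k3 and Wsb2 (0.94 and 0.89), Lck to Ddt and Atp5d (0.90 and 0.87), and Cd4 to Fah and Itm2a (0.85 and 0.80). No gene had an r over 0.9 with Lck or Cd4. Within groups, with the group means removed, Lck and Zap70 varied together over the 15 libraries (r = 0.96), Cd3d had an r of 0.74 with Cd247 and of 0.73 with Cd3g, and Cd28 and Lat had one of -0.79. These libraries share depth and handling, and the values are descriptions.

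Around the 10 genes, 69 further names of the pathway were listed by role. All but Fyb1, which has no row under that name, were found and tested, and stimulation called 47 of the 68 in control cells (17 higher and 30 lower) and 47 in cKO cells (19 higher and 28 lower). Over all genes tested, 50.6% were called in control cells (25.4% higher and 25.2% lower) and 53.8% in cKO cells (26.7% higher and 27.1% lower) (the background for the count of every list of these genes). The median log2 fold changes of the 68 were -0.23 and -0.14, against 0.00 and -0.01 over all genes. Genotype called 0 of 68 in either condition, against 0% of all genes without and 0.0064% with stimulation. The interaction called 0 of 68, against 0% of all genes. In the interaction 1 of 68 had an unadjusted p under 0.05, where 3.87% of all genes did, so this gene does not stand out. It was Itpr2, an inositol trisphosphate receptor gene, named after its value was seen.

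Of the 3 constant chain genes of the receptor, 1 fell and 2 were not called in each genotype. Trac, the alpha chain constant gene, went from 281 to 204 CPM in control cells (log2 fold change -0.46 ± 0.12, adjusted p = 0.00292) and changed by -0.36 ± 0.12 in cKO cells (0.0186). Trbc1 and Trbc2 encode near-identical beta constant regions, so their counts may be shared between them. Trbc1 and Trbc2 had values of -0.22 ± 0.15 and -0.36 ± 0.16 in control cells, and of 0.07 ± 0.16 and -0.09 ± 0.17 in cKO cells.

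Among 10 other receptors, 6 rose and 2 fell in control cells, and 6 rose and 1 fell in cKO cells, where 25.4% of all genes rose and 25.2% fell in control cells and 26.7% rose and 27.1% fell in cKO cells. Cd6 rose with log2 fold changes of 1.21 ± 0.13 and 1.26 ± 0.13, from 118 to 274 CPM in control cells. Ctla4, the inhibitory receptor gene beside Cd28 on chromosome 1, went from 458 to 1240.1 CPM in control cells (1.44 ± 0.23) and changed by 1.72 ± 0.24 in cKO cells. Cd28 and Ctla4, whose products bind the same ligands, thus moved in opposite directions. Cd82, a tetraspanin gene, rose by 0.57 ± 0.10 and 0.66 ± 0.11. Those that fell, named after their values were seen, were Cd226 in both genotypes and Icos in control cells.

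Of 8 proximal kinases, 4 fell in each genotype. Prkcq, the gene of protein kinase C theta, went from 261 to 115 CPM in control cells (-1.18 ± 0.09, adjusted p = 1.13e-08), and Ptk2b from 154 to 88.1 CPM (-0.81 ± 0.14). Syk, the relative of ZAP-70 that serves the B cell receptor, had only 3.34 CPM before and 0.658 CPM after (-2.34 ± 0.33). The other that fell, named after its value was seen, was Txk.

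Of 16 genes listed as phosphatases or negative regulators, 5 rose and 8 fell in each genotype. Genes at large also went both ways, with 25.4% higher and 25.2% lower in control and 26.7% and 27.1% in cKO cells. Pag1, whose product holds the LCK inhibitor CSK at the membrane, fell by 1.74 on the log2 scale in control cells (SE 0.09, adjusted p = 1.45e-10), from 134 to 40.0 CPM. Lax1 fell from 14.5 to 4.39 CPM (-1.72 ± 0.18), and Ptprj, a receptor tyrosine phosphatase gene, rose from 72.2 to 249 CPM (1.78 ± 0.13). The other 4 that rose, named after their values were seen, were Sla, Ptpn2, Ptpn22 and Ptpn6.

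Of 17 adaptor genes measured, 2 rose and 7 fell in control cells, and 3 rose and 6 fell in cKO cells. Grap2, the gene of GADS, which joins LAT to SLP-76, went from 349.8 to 143 CPM in control cells (-1.29 ± 0.08, adjusted p = 6.17e-10). Fyb went from 484 to 201 CPM (-1.27 ± 0.13) and Lime1 from 41.5 to 20.7 CPM (adjusted p = 6.31e-06). Lcp2, the SLP-76 gene, and Shb rose in both genotypes and Themis in cKO cells. All of these were named after their values were seen. Shb was scarce, at 0.287 CPM before and 0.856 CPM after in control and 0.374 and 1.04 CPM in cKO cells.

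Of 14 effectors downstream of LAT, 4 rose and 8 fell in each genotype. Rasgrp1, which activates Ras, went from 505 to 162 CPM in control cells (-1.64 ± 0.09, adjusted p = 1.81e-10) and Orai2, a calcium channel gene, from 63.6 to 26.1 CPM (-1.29 ± 0.10). Malt1, which links receptor signals to NF-κB, rose from 419.8 to 1138 CPM (1.44 ± 0.11, adjusted p = 1.58e-08). Orai1, Traf6 and Bcl10, the other 3 that rose, were named after their values were seen.

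**Figure D5:**
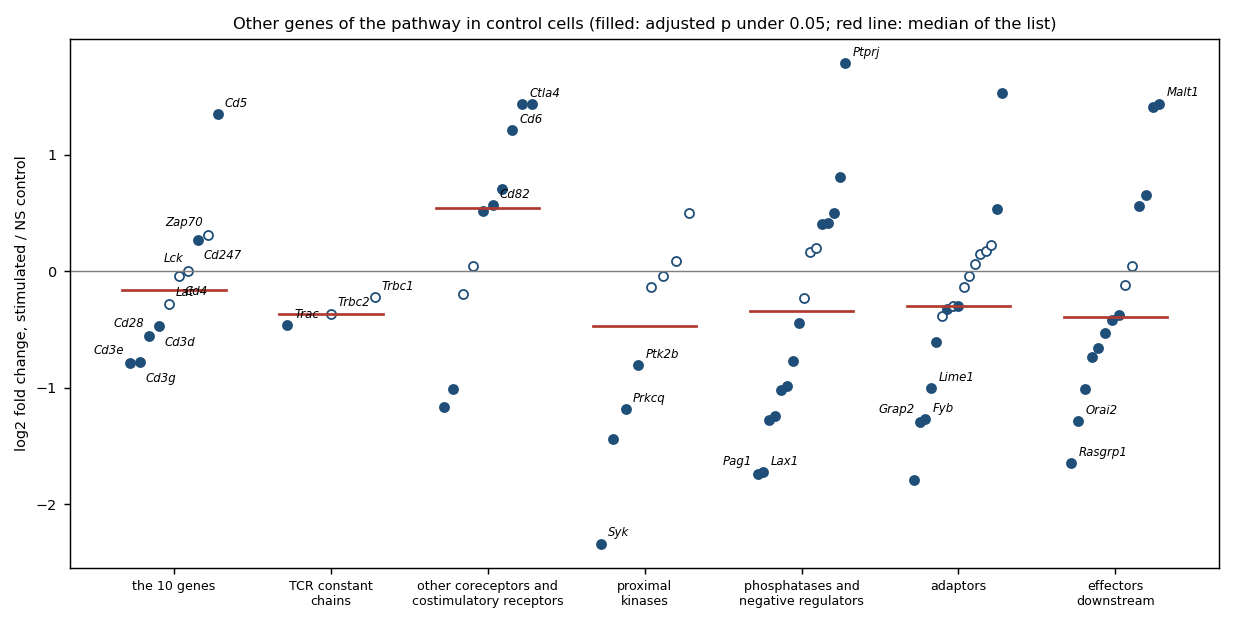
Log2 fold change with stimulation in control cells (vertical axis) for the 10 genes and for the 68 other pathway genes by role; each point is a gene, filled where the adjusted p was under 0.05, and red lines are medians of the lists. Syk (-2.34) is lowest and Ptprj (1.78) highest, and the medians of 5 of the 6 other lists lie below 0, that of the other receptors at 0.54.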

How the data were processed

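RNA of 15 libraries was analysed from the deposited gene tables. The authors deposited estimated counts that carry no factor between libraries. They also deposited TPM, which sums to one total in every library. Salmon 1.10.1, STAR 2.7.9a, cutadapt 3.4 and the build GRCm39 are named in the submitters' processing notes; their roles, the annotation and the strand setting are not given in the sources used here. Per the labels' protocols, a stranded total RNA kit with ribosomal RNA depletion was used.

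Estimated counts were rounded. With edgeR 4.0.16 in R 4.3.3, genes passing filterByExpr (15619) were scaled by TMM and fitted with 1 mean per group over all libraries (robust quasi-likelihood); tests were two-sided with Benjamini-Hochberg adjustment over all genes. The biological coefficient of variation was 15.4%. CPM uses scaled library sizes. No pair of libraries agreed within sampling noise. The fit was tested on simulated data. The members and gene lists were chosen with earlier results of these data known. Named are the members, Asb2, Gata3, the 3 pathway genes per list with the smallest p in control cells, the 2 genes most correlated with each member (names of predicted and RIKEN genes left out), and markers; Pou2f1 was added afterwards for its overlap with Cd247. Some genes that the rule names are not reported here. Deviations of same-numbered libraries from their group means had correlations of -0.20 to 0.18. Only between the cKO groups did every number correlate best with its own. The labels do not state a pairing, and numbers were not used as pairs in the main fit. Alternatives were DESeq2 1.42.0, other size factors and filters, fewer groups, replicate blocks, limma 3.58.1 (voom, or log2 of TPM plus 0.1 or 1), fewer gene classes, and leaving out each library; leaving out 2 libraries together was added after seeing the data. Protein sequences and their motifs were not used here.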

Additional observations from a re-analysis of the deposited data

Results flagged for a closer look

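In 2 of the 20 groups of 4 or 5 libraries examined (10 genes in stimulated control and stimulated cKO cells), 1 library stood apart from the rest by Dixon's criterion, which chance meets in about 1 group in 20. Cd3e was at 246 CPM in stimulated control replicate 4, against 188 to 203 CPM in the other 4; without it the log2 fold change of Cd3e in control cells was -0.85. Cd247 was at 201 CPM in stimulated control replicate 1, against 224 to 229.8 CPM in the other 4.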

How the results depend on the processing

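The number of members called kept within 1.5 times the reported one under every alternative run: 5 to 8 in control and 6 to 7 in cKO cells with each library left out in turn, and 0 in both genotype comparisons and the interaction. Cd3e, Cd3d, Cd3g and Cd5 were called in all 27 alternatives in both genotypes, Cd28 and Cd247 in all 27 in cKO cells, and in 25 and 15 in control cells. The control call of Cd247 was lost with relative log expression factors (0.27, adjusted p = 0.0521), a filter of 1 CPM in 3 libraries (0.26, 0.0544) and a replicate block within genotype (0.25, 0.0544). Zap70 was called in control cells in 12 of 27, at 0.31 to 0.48. Pathway genes called ranged from 43 to 49 in control and 44 to 48 in cKO cells with 1 library left out. In cKO cells Lat was called by limma-voom (-0.32, adjusted p = 0.0459).

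Signs changed among values that were not called. Lck in control cells was 0.0072 without a filter, 0.081 with the replicate block and 0.057 with the block within genotype, 0.063 with limma-voom, 0.16 on both TPM scales, 0.071 without the 2 libraries together, and -0.040 to 0.067 with 1 library left out. Cd4 in control cells was 0.11 on both TPM scales and -0.14 to 0.034 with 1 library left out. On TPM plus 0.1 and plus 1, Lck in cKO cells was -0.031, Cd28 between non-stimulated genotypes 0.073, and Cd247 in the interaction -0.019. Over all members, 34, 39 and 35 of 260 values changed sign in the 2 genotype comparisons and the interaction, none called. The cause was not tested.

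On TPM plus 0.1 the median of all genes shifted by 0.14 and -0.09 with stimulation in control and cKO cells, by 0.15 and -0.07 between genotypes, and by -0.21 in the interaction; control calls were 3754 higher and 2108 lower. The replicate block gave 7 members called in control cells and 6 in cKO cells; in cKO cells, though not in the other pairs of groups, every number correlated best with its own (0.0802 to 0.110), a hint from the data and not from the design. Ordered by CPM, which is not per length, 34, 32, 35 and 30 of 45 pairs of members kept their TPM order (non-stimulated and stimulated control, then cKO). Every member had at least 1050 estimated counts in each library, and groups of 3 to 5 libraries set the width of the intervals.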
